A study of Mus musculus with 4 samples.

Results

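A set of 39 genes of melanosome biogenesis and pigment synthesis were followed in the Met-low and Met-high fractions of B16-F10, a mouse melanoma line. The genes were listed by name from what is known of their function, but with earlier results of these data already known. They comprised the melanin enzymes and matrix proteins, the channels and transporters of the melanosome membrane, and the sorting complexes that deliver cargo to it. The motor system that carries the melanosome and some genes enriched in melanocytes were also included. Each was represented by its brightest probe over the 4 arrays. All 39 of the 39 genes passed the filter on dim probes, out of 20832 genes named on the array and 11958 genes that passed. On all 4 arrays, 38 of them were well above background, and *Tpcn2* was so on 1 of the 2 Met-low arrays and on both Met-high arrays.

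B16-F10 is transplantable, forms pigment and comes from C57BL/6 mice. The cells were divided by a flow cytometer into a population with little and a population with much of the receptor tyrosine kinase Met on the surface, and both were grown for 3 days in the same serum-containing RPMI medium before RNA was taken, with no drug or genetic change in either group. There were 2 Met-low and 2 Met-high samples, described as independently prepared, each on 1 one-colour Agilent array. The populations are thus fractions of 1 established line, defined by 1 surface protein and sampled after a period of culture, and are not normal melanocytes at known stages.

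Melanin is made inside melanosomes, organelles related to lysosomes. In premelanosomes, fibrils of Pmel form the scaffold, and tyrosinase and its relatives Tyrp1 and Dct are then delivered from endosomes by the adaptor complexes AP-1 and AP-3, by the biogenesis complexes BLOC-1, BLOC-2 and BLOC-3, and by the small GTPases Rab32 and Rab38. Channels and transporters set the pH and the ions within, and the filled organelle is carried on actin by Rab27a, melanophilin and myosin Va.

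Signals are given on the log2 scale, set against the array's own 75th percentile, so that 0 is the signal of the probe at that percentile, and a log2 ratio is the mean of the Met-high arrays minus the mean of the Met-low arrays. The 75th percentile lay between 858 and 1331 intensity units, 50.01% to 53.63% of spots were well above background, and 0 spots were saturated. The signal of *Met* was -0.26 and -0.89 in Met-low and 1.03 and -0.43 in Met-high cells, so that Met-high replicate 2 lay within the range of Met-low. Results are therefore also given without that array. The log2 ratio of *Met* was 0.87 (standard error 0.51, adjusted p = 0.333, limma with Benjamini-Hochberg adjustment). Of the melanocyte lineage markers (*Pmel*, *Mlana*, *Tyr*, *Tyrp1*, *Dct*, *Mitf* and *Sox10*), 7 of 7 were well above background on all arrays, and their summed linear signal was 1385 to 1691 times the array's 75th percentile in Met-low and 1494 to 1698 times in Met-high cells. On the same scale, the summed signal of the fibroblast markers was 0.62 to 0.68 in Met-low and 0.30 to 0.31 in Met-high cells, with *Dcn*, *Lum* and *Pdgfra* not well above background on any array and *Col1a2* called higher in Met-low cells (log2 ratio -1.10, adjusted p = 0.0311). For the leucocyte markers the sum was 3.09 to 3.68 in Met-low and 3.56 to 5.24 in Met-high cells (*Ptprc* and *Cd79a* not well above background). For the keratinocyte markers it was 0.12 to 0.21 and 0.11 to 0.13 (*Krt1* not well above background). For the endothelial markers it was 5.48 to 6.31 and 6.72 to 8.44 (*Cdh5* and *Tie1* not well above background). The leucocyte markers *Csf1r* (log2 signals 0.86 to 1.43) and *Cd3e* (0.32 to 1.33) were well above background on all arrays. So were the endothelial marker *Kdr* (2.43 to 3.07) and the fibroblast marker *Col1a2*. *Col1a1*, *Krt5*, *Krt14*, *Krt10* and *Pecam1* were well above background on some arrays only. The part of these markers in the results was not tested, and in such bulk samples fewer cells of a type and less RNA per cell cannot be told apart.

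Of the 39 genes, 3 were called as higher in Met-high cells (adjusted p under 0.05), namely *Oca2*, *Trpm1* and *Cited1*, and 1, *Myo5a*, was called higher in Met-low cells. These were 7.69% and 2.56% of the genes, where 1.95% and 3.82% of all genes tested were called in the respective directions. As the list was made with earlier results of these data known, such shares are descriptions only. The same 3 genes and 1 gene were past a 2-fold difference, where 2.43% of all genes were higher by that factor in Met-high cells and 5.29% were so in Met-low cells. Without Met-high replicate 2 there were 2 and 1 calls, as *Cited1* no longer passed. At an unadjusted p under 0.05, 6 of the genes (15.4%) were higher in Met-high cells and 3 (7.69%) were lower, where 14.3% and 11.9% of all genes tested passed in these directions, so that the shares of the 39 genes were near and below those of all genes.

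The other 35 genes were not called, and the 95% interval of the ratio lay within a 2-fold difference for 32 of them. Both Met-high arrays lay above both Met-low arrays for 17 genes (43.6%, against 35.7% of all genes tested), and the opposite held for 5 genes (12.8%, against 22.6%). The median log2 ratio was 0.067 over the 39 genes and 0.096 over all genes tested. The number of genes whose mean was higher in Met-high cells was 27 of 39 with the 75th percentile of all probes, but 17 after quantile normalization and 15 with the percentile taken over detected probes, where 59.5%, 56.6% and 45.2% of all genes had their higher mean there. The percentile over detected probes moved the median of all genes from 0.096 to -0.051, so that ratios of this size have no direction apart from the scaling.

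**Figure D1:**
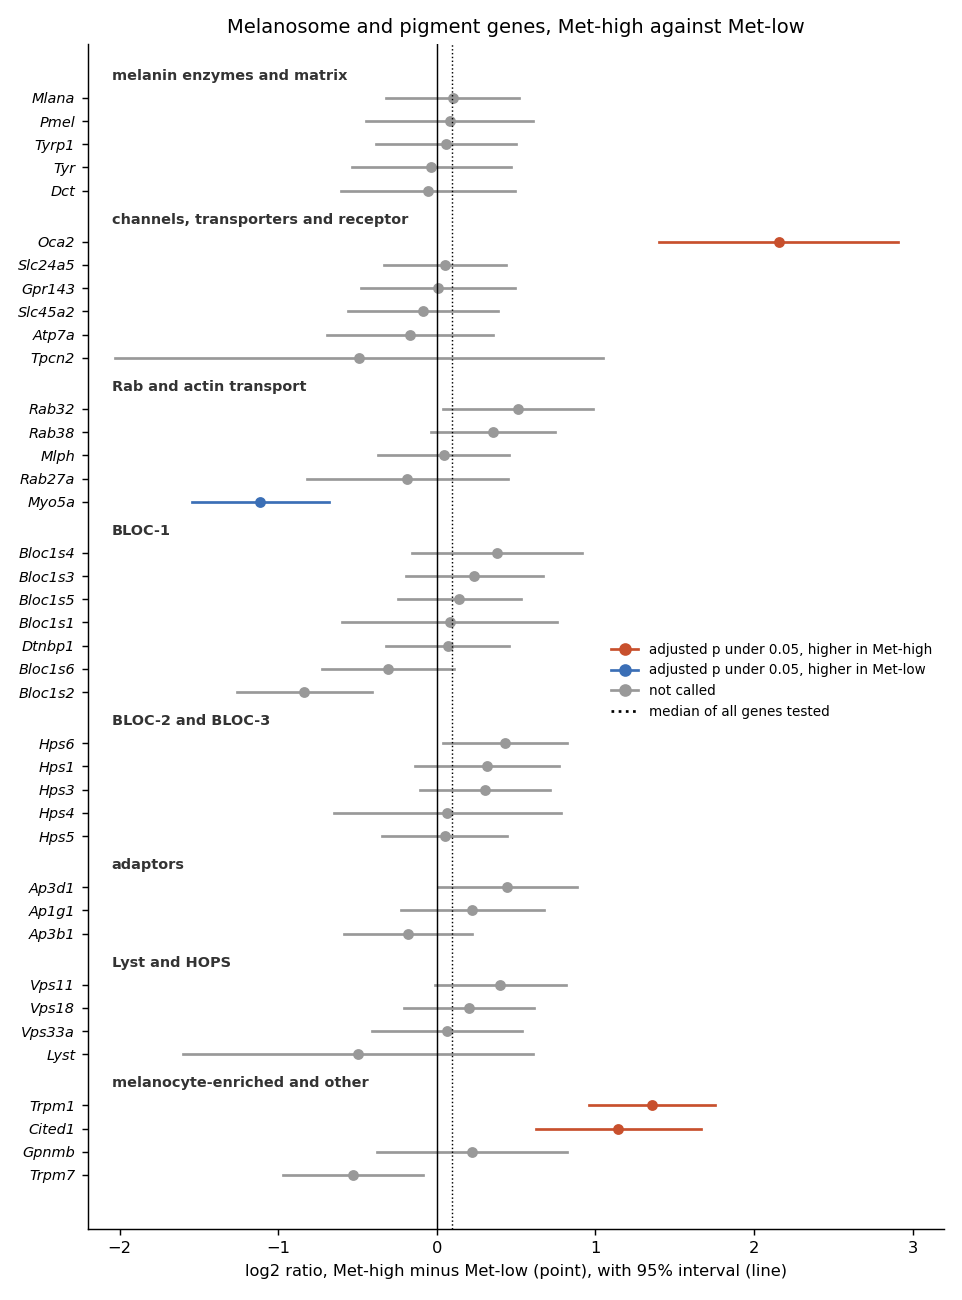
Log2 ratio of each of the 39 genes (Met-high minus Met-low, points) with its 95% interval from limma (lines), grouped by role, with 2 arrays in each population. Red marks genes called higher in Met-high cells, blue those called higher in Met-low cells and grey those not called, and the dotted line is the median of all genes tested; *Oca2* at 2.15, *Trpm1* at 1.36, *Cited1* at 1.14 and *Myo5a* at -1.11 are the genes past 1 in size.

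The genes of the melanin enzymes and of the melanosome matrix did not differ detectably between the populations. *Tyr* (NM_011661), encoding the rate-limiting enzyme tyrosinase, had log2 signals of 3.85 and 3.56 in Met-low and of 3.82 and 3.52 in Met-high cells. *Tyrp1* (NM_031202), encoding a tyrosinase relative that acts on later melanin intermediates, had 8.07 and 7.86 in Met-low and 8.12 and 7.93 in Met-high cells. *Dct* (NM_010024), encoding dopachrome tautomerase, had 8.70 and 8.34 in Met-low and 8.64 and 8.28 in Met-high cells. In each of these genes replicate 1 lay above replicate 2 in both populations, and the ranges of the populations overlapped. *Pmel* (NM_021882), encoding the fibril protein, had 8.82 and 8.41 in Met-low and 8.80 and 8.59 in Met-high cells. *Mlana* (NM_029993), encoding a small membrane protein that interacts with Pmel, had 8.85 and 8.64 in Met-low and 8.88 and 8.81 in Met-high cells. These ranges overlapped as well.

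The transporters and the receptor that define pigment cells showed the same picture apart from *Oca2*. *Slc45a2* (NM_053077), encoding a transporter mutated in oculocutaneous albinism, had log2 signals of 6.25 and 6.01 in Met-low and of 6.18 and 5.92 in Met-high cells. *Slc24a5* (NM_175034), encoding an ion exchanger with a role in pigmentation, had 5.33 and 5.33 in Met-low and 5.36 and 5.40 in Met-high cells. *Gpr143* (NM_010951), encoding the melanosome receptor mutated in ocular albinism, had 4.30 and 4.03 in Met-low and 4.31 and 4.03 in Met-high cells. Of these genes, *Slc24a5* alone had no overlap between the populations, with a log2 ratio of 0.052. Over the 8 genes from *Tyr* to *Gpr143*, 0 were called by limma, and 0 at an unadjusted p under 0.05. Their log2 ratios lay between -0.086 and 0.10, and their 95% intervals between -0.61 and 0.61, which bounds a difference at 1.52-fold in either direction. Replicate 1 was above replicate 2 in both populations for 7 of the 8. The larger of the 2 gaps between replicates exceeded the difference between populations in 7 of the 8. Each of the 8 changed the sign of its ratio under at least 1 alternative setting, and over those settings the ratios lay between -0.24 and 0.29 and were never called.

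*Oca2* (NM_021879), encoding a chloride channel that regulates melanosomal pH, had log2 signals of -0.29 and 0.52 in Met-low and of 2.17 and 2.36 in Met-high cells. Both Met-high arrays were above both Met-low arrays. The log2 ratio was 2.15 (standard error 0.30, 95% interval 1.40 to 2.91), a 4.45-fold difference with an adjusted p of 0.0235 from limma. Leaving out single arrays gave 1.75 to 2.56, with 2.06 (adjusted p = 0.00999) without Met-high replicate 2. The call was lost only where the filter on dim probes was dropped (adjusted p = 0.121).

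**Figure D2:**
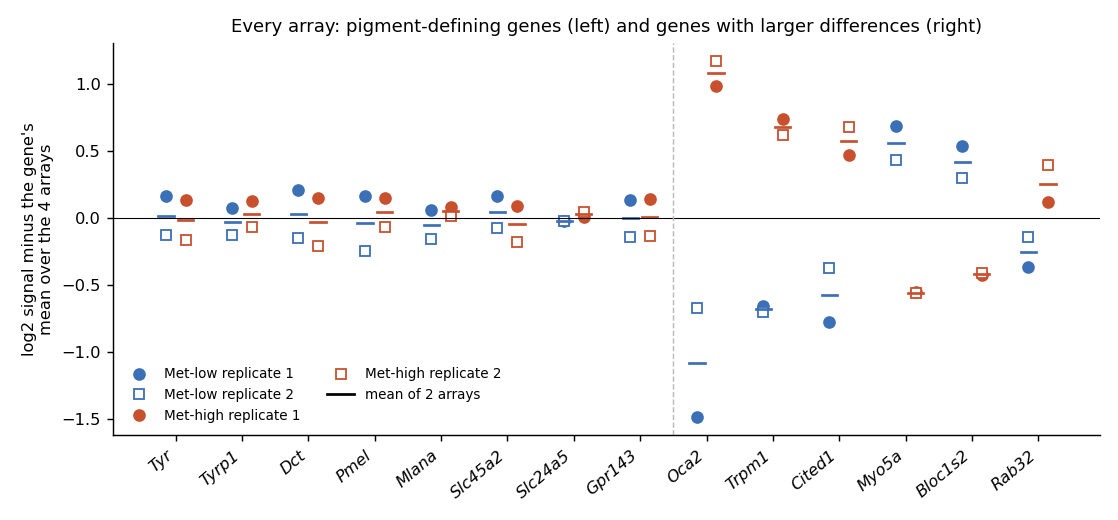
Log2 signal of every array, minus the mean of the gene over the 4 arrays, for the 8 pigment-defining genes other than *Oca2* (left of the dashed line) and for 6 genes with larger differences (right). Blue is Met-low, red is Met-high, circles are replicate 1, squares replicate 2 and bars the mean of 2 arrays. On the left the larger of the 2 gaps between replicates exceeds the difference between populations in 7 of 8 genes. On the right the populations do not overlap.

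The other genes of the melanosome membrane were not called. *Atp7a*, the copper pump that supplies tyrosinase, had a log2 ratio of -0.17 (adjusted p = 0.634, limma). *Tpcn2*, encoding a cation channel of lysosomes and melanosomes, was dim, with log2 signals of -5.01 and -3.10 in Met-low and of -4.63 and -4.47 in Met-high cells, so that the Met-high arrays lay between the Met-low arrays. Its ratio was -0.49 on all arrays (adjusted p = 0.641), -1.45 without Met-low replicate 1 (adjusted p = 0.019) and 0.46 without Met-low replicate 2, and thus had no settled direction.

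*Myo5a* (NM_010864), encoding the myosin motor that holds melanosomes at the cell periphery and is lost in dilute mice, had log2 signals of 3.94 and 3.68 in Met-low and of 2.71 and 2.69 in Met-high cells. The signal was higher on each Met-low array than on either Met-high array. Its log2 ratio of -1.11 had a standard error of 0.17 and an adjusted p of 0.0294 from limma, that is, the level was 2.16-fold higher in Met-low cells. It was -1.11 (adjusted p = 0.049) without Met-high replicate 2, and the call was lost without Met-low replicate 1 (ratio -0.99, adjusted p = 0.0828) and without the filter on dim probes (adjusted p = 0.152). The partners that link the motor to the organelle were not called: the ratio of *Rab27a*, the GTPase on the melanosome, was -0.19 (adjusted p = 0.673), and that of *Mlph*, the linker melanophilin, was 0.042 (adjusted p = 0.89).

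The GTPases that deliver the melanin enzymes had somewhat higher signals in Met-high cells, without being called. *Rab32* had log2 signals of 3.37 and 3.59 in Met-low and of 3.86 and 4.13 in Met-high cells, a ratio of 0.51 (standard error 0.19, adjusted p = 0.167, limma). *Rab38* had 5.82 and 5.71 in Met-low and 6.12 and 6.12 in Met-high cells, a ratio of 0.36 (standard error 0.15, adjusted p = 0.222). The populations did not overlap for either gene.

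BLOC-1 is the complex that sorts cargo from endosomes to the melanosome. Of its 7 subunits among the 39 genes, 0 were called. At an unadjusted p under 0.05, 1 passed, lower in Met-high cells (11.9% of all genes passed in that direction). That subunit was *Bloc1s2* (NM_028607), with log2 signals of 3.99 and 3.75 in Met-low and of 3.03 and 3.04 in Met-high cells. Its signal on each Met-low array exceeded that on either Met-high array, and the ratio was -0.84 (standard error 0.17, adjusted p = 0.0558, limma). Its adjusted p fell under 0.05 in 5 of 13 alternatives without pairing, between 0.027 with normexp background correction and 0.0488 with a stricter filter. The ratio of *Bloc1s6*, encoding pallidin, was -0.31 (adjusted p = 0.296, limma). Its Met-low arrays were again both above its Met-high arrays, as in 22.6% of all genes tested. The means of the remaining 5 of these 7 subunits (71.4%) were higher in Met-high cells, as were those of 59.5% of all genes tested. The 5 ratios lay between 0.067 (*Dtnbp1*, encoding dysbindin) and 0.38 (*Bloc1s4*) on the log2 scale. However, *Bloc1s1* and *Dtnbp1* took the opposite sign after quantile normalization, and those 2 and *Bloc1s5* with the percentile over detected probes. *Snapin*, from the list of further subunits and partners, had a ratio of -0.056 (adjusted p = 0.85).

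The genes of BLOC-2 (*Hps3*, *Hps5* and *Hps6*) and BLOC-3 (*Hps1* and *Hps4*) are mutated in forms of Hermansky-Pudlak syndrome. All 5 had means that were higher in Met-high cells, by 0.048 to 0.43. So did 59.5% of all genes tested, whose median ratio was 0.096. *Hps4* and *Hps5* changed sign with normexp, quantile normalization or the percentile over detected probes. By limma, 0 of the 5 were called, and *Hps6*, at 0.43 (adjusted p = 0.164), passed an unadjusted p under 0.05, as did 14.3% of all genes in that direction. *Hps1*, encoding the BLOC-3 subunit that acts with Hps4 on Rab32 and Rab38, had log2 signals of -0.96 and -1.22 in Met-low and of -0.86 and -0.69 in Met-high cells. Both Met-high arrays were above both Met-low arrays, as in 35.7% of all genes tested. The ratio of *Hps1* was 0.32 (standard error 0.18, adjusted p = 0.322, limma).

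Among the adaptors, the HOPS subunits and *Lyst* of the 39 genes, 0 genes were called. For the AP-3 subunits, the ratio was 0.44 for *Ap3d1* (adjusted p = 0.187, limma) and -0.18 for *Ap3b1* (adjusted p = 0.507), and for the AP-1 subunit *Ap1g1* it was 0.22 (adjusted p = 0.465). Of these 3 genes 0 were called, and *Ap3d1* passed an unadjusted p under 0.05 in the direction in which 14.3% of all genes did. The HOPS complex tethers late endosomes and lysosomes. Its subunits among the 39 genes had ratios of 0.40 (*Vps11*, adjusted p = 0.202), 0.20 (*Vps18*) and 0.062 (*Vps33a*, which was -0.084 with the percentile over detected probes). *Lyst*, the gene of Chediak-Higashi syndrome, which controls the size of lysosome-related organelles, had a ratio of -0.49 with a standard error of 0.44, and Met-high replicate 2 was its lowest array at -3.40. Without that array the ratio was 0.11. Neither *Lyst* nor any of the HOPS genes among the 39 was called or passed an unadjusted p under 0.05.

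Of the 4 remaining genes, grouped as enriched in melanocytes or other, 2 were called, *Trpm1* and *Cited1*. Both were higher in Met-high cells, as were 1.95% of all genes tested. This was not a pattern of melanocyte genes in general, as 0 of the 7 melanocyte lineage markers were called. *Trpm1* (NM_018752), encoding a cation channel first known as melastatin, had log2 signals of 3.53 and 3.49 in Met-low and of 4.93 and 4.81 in Met-high cells. *Cited1* (NM_007709), encoding a transcriptional co-regulator, had 5.75 and 6.15 in Met-low and 6.99 and 7.20 in Met-high cells. In both genes every Met-high array was above every Met-low array. The ratio of *Trpm1* was 1.36 (standard error 0.16, adjusted p = 0.0156 from limma), a 2.56-fold difference, and was 1.42 (adjusted p = 0.0129) without Met-high replicate 2. Its call was lost without the filter on dim probes (adjusted p = 0.105). That of *Cited1* was 1.14 (standard error 0.21, adjusted p = 0.0431), a 2.21-fold difference, but it passed in 8 of 13 alternatives only. The adjusted p of *Cited1* was 0.0775 without Met-high replicate 2, 0.104 without Met-low replicate 1, 0.056 with the percentile over detected probes, 0.187 without the filter on dim probes and 0.0504 where the probes of each gene were averaged. *Gpnmb*, encoding a melanosome glycoprotein, had a ratio of 0.22 (adjusted p = 0.587, limma). *Trpm7*, encoding a channel with a kinase domain, had -0.53 (adjusted p = 0.143). Both its Met-low arrays were above its Met-high arrays, as in 22.6% of all genes tested.

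**Figure D3:**
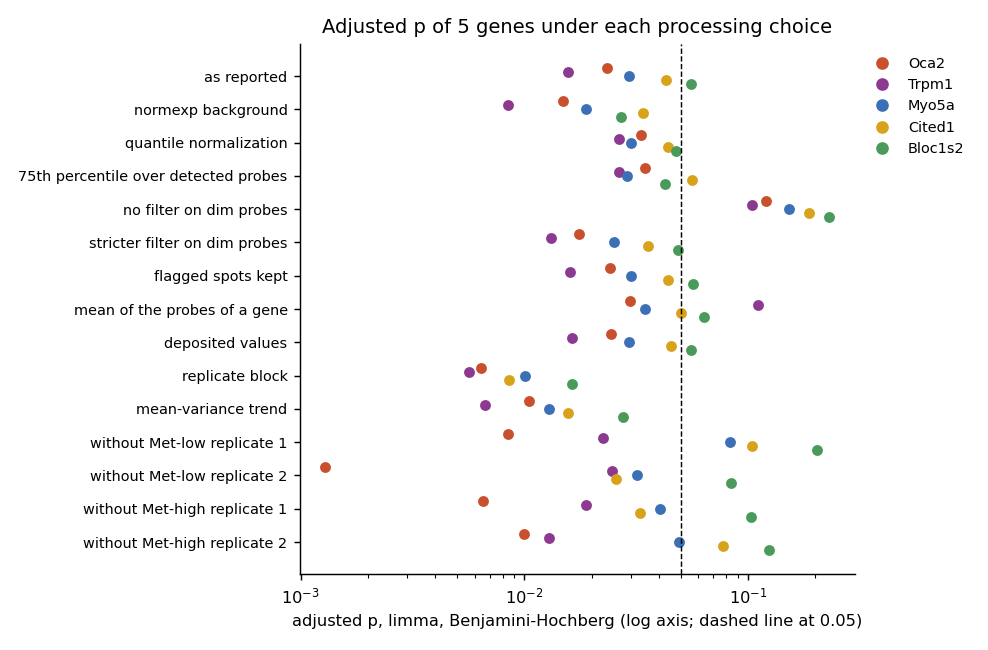
Adjusted p (limma, Benjamini-Hochberg, log axis) of *Oca2*, *Trpm1*, *Myo5a*, *Cited1* and *Bloc1s2* as reported and under 14 alternative settings, with the threshold of 0.05 as a dashed line. *Oca2* is right of the line only without a filter on dim probes, and the other 4 genes also cross it, *Trpm1* and *Myo5a* to the right in 2 settings each.

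More than 1 named probe existed for 11 of the 39 genes, with 13 probes beside the brightest, of which 11 probes in 9 genes passed the filter. Only for *Trpm1* did another probe differ by over 1 in log2 ratio. Its brightest probe is listed under NM_018752 and the other 2 under NM_001039104. One of these had log2 signals of -3.26 and -3.25 in Met-low and of -2.52 and -2.53 in Met-high cells, a ratio of 0.73 (adjusted p = 0.0742 over all probes). The other had -3.37 and -3.62 in Met-low and -3.70 and -3.95 in Met-high cells, a ratio of -0.33 (adjusted p = 0.344). The probes of *Trpm1* therefore did not all run the same way, and the mean of its probes was not called (ratio 0.59, adjusted p = 0.111). The second probes of *Tyr* and *Dct* gave ratios of -0.35 and -0.25, with adjusted p of 0.284 and 0.528 over all probes.

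**Figure D4:**
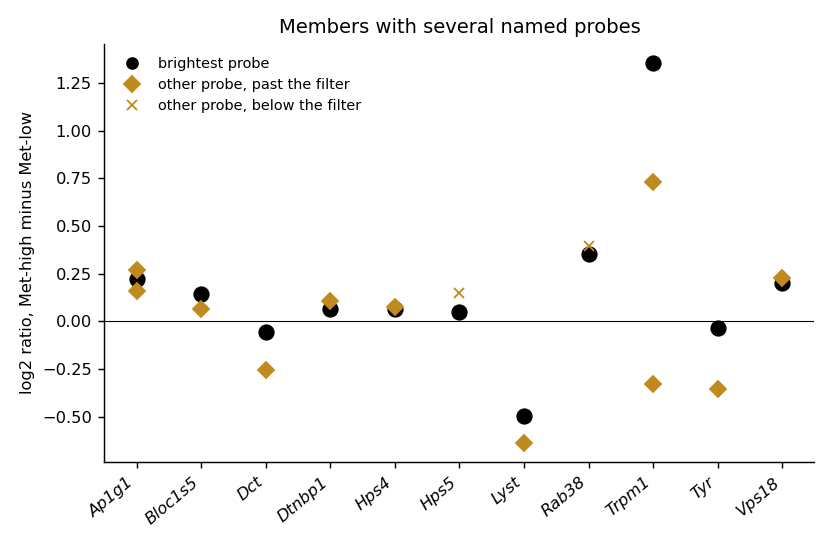
Log2 ratio (Met-high minus Met-low) of each named probe for the 11 genes with several probes, with the brightest probe as a black circle, other probes past the filter as diamonds and those below it as crosses. The probes of *Trpm1* lie at 1.36, 0.73 and -0.33, and in the other genes no probe is over 1 away from the brightest.

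The promoters are shown because many pigment genes are bound near their start by the melanocyte factor Mitf, which recognises E-box letters. Searched were CATGTG, the core of the M-box, on either strand (read as CACATG on the other), and the palindrome CACGTG; a given stretch cannot match both. In the RefSeq promoter table of GRCm38.p6, 32 of the 39 genes had an entry, with 37 annotated starts, and *Bloc1s6*, *Gpr143*, *Mlana*, *Pmel*, *Rab38*, *Slc45a2* and *Vps11* had none. Within the 250 bases before the start, CATGTG on either strand was found in 27.03% of these 37 promoters and in 12.3% of 32851 promoters of the table, and CACGTG in 27.03% and 6.02%. Either was found in 51.4% against 17.6%, in 19 promoters of 18 genes. These shares are descriptions of letters and not of binding.

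The promoter of *Tyr*, which was not called, and those of the called genes are given below 5′ to 3′ on the strand of the gene, ending at the base before the start, with the matched letters in capitals. Of the 2 starts of *Trpm1* both are shown, and of the 3 starts of *Cited1* the only one with a match, chosen after the search.
*Tyr*, chr7:87493513-87493762, - strand: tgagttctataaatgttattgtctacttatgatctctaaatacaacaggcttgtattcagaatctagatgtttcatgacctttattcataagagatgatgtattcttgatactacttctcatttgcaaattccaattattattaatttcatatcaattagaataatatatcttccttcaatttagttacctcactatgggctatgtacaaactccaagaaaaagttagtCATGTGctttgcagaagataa
*Oca2*, chr7:56239509-56239758, + strand: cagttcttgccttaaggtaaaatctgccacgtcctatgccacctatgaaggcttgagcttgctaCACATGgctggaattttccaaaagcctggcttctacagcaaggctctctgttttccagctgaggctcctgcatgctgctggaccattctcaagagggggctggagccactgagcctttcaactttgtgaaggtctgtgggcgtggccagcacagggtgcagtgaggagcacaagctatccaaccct
*Trpm1*, first start, chr7:64153585-64153834, + strand: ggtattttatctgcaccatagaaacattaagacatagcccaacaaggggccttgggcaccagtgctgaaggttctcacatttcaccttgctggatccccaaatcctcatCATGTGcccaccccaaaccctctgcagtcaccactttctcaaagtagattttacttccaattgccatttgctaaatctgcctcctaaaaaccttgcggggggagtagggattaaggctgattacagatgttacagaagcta
*Trpm1*, second start, chr7:64185209-64185458, + strand: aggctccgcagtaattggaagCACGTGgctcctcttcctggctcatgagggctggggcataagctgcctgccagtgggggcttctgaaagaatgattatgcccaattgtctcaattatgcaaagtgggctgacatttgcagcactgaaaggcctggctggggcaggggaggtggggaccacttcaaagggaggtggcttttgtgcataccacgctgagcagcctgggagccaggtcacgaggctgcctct
*Cited1*, chrX:102251844-102252093, - strand: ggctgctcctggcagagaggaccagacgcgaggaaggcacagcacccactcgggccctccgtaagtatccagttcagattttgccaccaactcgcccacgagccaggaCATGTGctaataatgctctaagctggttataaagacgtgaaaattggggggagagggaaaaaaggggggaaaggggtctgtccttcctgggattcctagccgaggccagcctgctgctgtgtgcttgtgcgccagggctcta
*Myo5a*, chr9:75070956-75071205, + strand: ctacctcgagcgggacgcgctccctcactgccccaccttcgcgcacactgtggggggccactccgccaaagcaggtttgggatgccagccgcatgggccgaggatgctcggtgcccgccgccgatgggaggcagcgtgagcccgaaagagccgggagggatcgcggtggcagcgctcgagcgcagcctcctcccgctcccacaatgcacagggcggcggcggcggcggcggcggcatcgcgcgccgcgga
The match lay 21 bases before the start in *Tyr*, 186 in *Oca2*, 141 and 229 in the 2 promoters of *Trpm1* and 142 in *Cited1*, and *Myo5a* had none in this window. Matches thus stood before genes that were called and before genes, such as *Tyr* and *Tyrp1* (46 bases before the start), that were not.

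**Figure D5:**
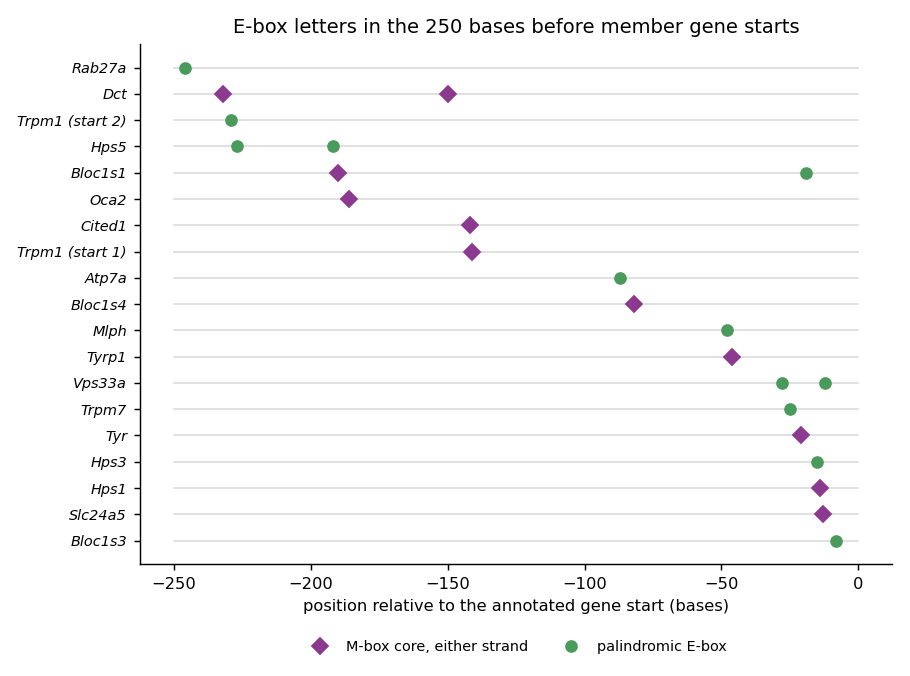
Position of each match (x axis, bases relative to the annotated start) in the promoters with at least 1 match, one row for each start. Purple diamonds are the M-box core on either strand and green circles the palindromic E-box; the matches are spread over the whole window, from 246 bases before the start in *Rab27a* to 8 bases in *Bloc1s3*.

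Other genes of the same processes were counted by list. These lists too were chosen with earlier results of these data known, so their shares are descriptions only. Their genes are given by the brightest probe, and were not followed singly under the alternative settings or without Met-high replicate 2. Of 14 further subunits and partners of BLOC, AP and HOPS complexes, 0 were called by limma, and 2 (*Vps16* and *Ap1s2*) passed an unadjusted p under 0.05, both higher in Met-high cells, or 14.3% in the list as among all genes. Of 16 genes of the vacuolar proton pump, which acidifies the organelle, 0 were called, and 1 (*Atp6v0c*) passed an unadjusted p under 0.05, higher in Met-high cells, or 6.25% against 14.3% of all genes. Of 19 tested genes of melanosome traffic and fusion, 2 were called, both higher in Met-high cells, or 10.53% against 1.95% of all genes. At an unadjusted p under 0.05, 4 of the 19 were higher in Met-high cells (those 2, *Rabggta* and *Vac14*), or 21.05% against 14.3% of all genes. In the other direction 3 passed, or 15.79% against 11.9%. These were *Sytl2* at -0.78, *Vamp7* at -0.54 and *Pikfyve* at -0.46 in log2 ratio. *Rab17*, a GTPase with a role in melanosome release, had log2 signals of -1.38 and -0.77 in Met-low and of 1.05 and 1.42 in Met-high cells, a ratio of 2.31 (standard error 0.27, adjusted p = 0.0156). *Stx3*, a membrane-fusion syntaxin, had -3.17 and -2.42 in Met-low and -0.39 and -0.57 in Met-high cells, a ratio of 2.32 (standard error 0.28, adjusted p = 0.0177). The arrays of the populations did not overlap in these genes.

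Of 13 tested genes of melanosome chemistry, 1 was called, *Cln3*, a lysosomal membrane protein, with a ratio of 0.80 (adjusted p = 0.0499, limma). That is 7.69% of the list, where 1.95% of all genes were called higher in Met-high cells. At an unadjusted p under 0.05, *Ctns* was higher in Met-high cells as well (ratio 0.58), so that 15.38% passed in this direction, against 14.3% of all genes. *Slc7a11* was lower, or 7.69% against 11.9%. *Slc7a11*, the cystine importer that supplies pheomelanin synthesis, had log2 signals of -2.22 and -1.67 in Met-low and of -3.36 and -4.47 in Met-high cells. Its arrays did not overlap, and its ratio was -1.98 (standard error 0.41), past a 2-fold difference but not called (adjusted p = 0.0587). Of 8 tested regulators of melanocytes, 1 was called, *Kit*, the receptor needed by melanoblasts, at -2.19 (adjusted p = 0.0099, higher in Met-low cells). That is 12.5% of the list, where 3.82% of all genes were called in this direction. *Sox10* and *Tfeb*, at 0.53 and 0.57, passed an unadjusted p under 0.05, or 25.0% against 14.3% of all genes higher in Met-high cells. In the other direction *Kit* alone passed, or 12.5% against 11.9%. *Mitf*, the main regulator of the pigment genes, had a ratio of -0.14 (adjusted p = 0.613).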

How the data were processed

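The authors deposited the Feature Extraction output of 4 one-colour arrays, in which each spot has a background-corrected Cy3 intensity beside flags of 0 or 1 that mark outlier spots, saturation and a signal well above background. Version 11.0.1.1 of the software stands in the headers and 10.7.3.1 in the submitters' processing notes. The authors also deposited log2 values, which were used as an alternative only. Values of 0.01 were set as a floor, intensities were divided by each array's 75th percentile over spots that are not controls, and log2 was taken. Flagged spots were left out and spots of a probe were averaged. Probes were named by accession through RefSeq (GRCm38.p6), 27427 of 39429 in all, and the brightest probe of a gene was used. A gene was kept if it was well above background on both Met-low or on both Met-high arrays, a probe counting as such when at least 0.5 of its unflagged spots were. The populations were compared, 2 arrays against 2, with limma 3.58.1 in R 4.3.3 (lmFit and eBayes, two-sided) and Benjamini-Hochberg adjustment over 11958 genes, with a threshold of 0.05. The number of arrays limits the precision, and a permutation of 2 against 2 arrays cannot give p under 0.05. The p-values rest on the spread between these samples, which the study describes as independently prepared. In eBayes the spread of each gene is drawn toward that of all genes, so they do not measure a gene's own spread alone. All arrays lay on 1 slide, so position on the slide and population cannot be told apart. Every one of the 39 genes was accounted for. Those called or past 2-fold and the 9 genes that define pigment cells were given with every array, and the others by role. Genes outside the list were given when called or past 2-fold, or, beside a count, when past an unadjusted p of 0.05. *Met*, *Mitf*, *Snapin* and markers of other cell types were given besides. Array values of *Rab32*, *Rab38*, *Bloc1s2*, *Hps1*, *Tpcn2* and the genes outside the list were added after their values were seen. The 39 genes and the other lists were chosen with earlier results of these data known. Alternatives were normexp background correction (offset 50), quantile normalization, the percentile over detected probes, flagged spots retained, the filter on dim probes dropped or made stricter, probes of a gene averaged or tested singly, the deposited values, a block for the replicate number, a mean-variance trend, and the omission of single arrays. Figures were drawn with Python 3.11.15 and matplotlib 3.10.9.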

Additional observations from a re-analysis of the deposited data

How the results depend on the processing

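The 3 genes higher in Met-high cells became 0 without a filter on dim probes (3 at an unadjusted p under 0.05), 1 with the mean of a gene's probes and 5 with the replicate block, and 2 to 3 with an array left out. The 1 gene higher in Met-low cells became 0 without a filter (2 at an unadjusted p under 0.05), 2 with normexp, quantile normalization, the percentile over detected probes, the stricter filter or the mean-variance trend, and 3 with the block. With an array left out the count was 1 each time, but without Met-low replicate 1 it was *Tpcn2* (adjusted p = 0.019, limma) and no longer *Myo5a* (0.0828). Without a filter 0 and 7 of 20832 genes were called; the cause was not tested. The median ratio of 0.067 was -0.045 after quantile normalization and -0.079 with the percentile over detected probes, and 0.015 to 0.18 with an array left out. Replicates share a number only: deviations of same-numbered arrays correlated at 0.54 over all genes, with 2 pairs. The block added *Rab32* (adjusted p = 0.0308, limma), *Hps6* (0.0491), *Bloc1s2* (0.0163) and *Trpm7* (0.0311), and raised the calls over all genes from 233 and 457 to 1976 and 1580, and with the percentile over detected probes there were 140 and 595. A slide block was not run, since there was 1 slide. With every probe tested by itself, 2 genes were called higher in Met-high and 1 higher in Met-low cells. The ratios of the 4 called genes never changed sign in the other settings, but 1 single probe of *Trpm1* had a ratio of -0.33.

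Of the 35 genes not called, 19 changed the sign of the ratio in at least 1 alternative, and 0 of these 52 sign changes were called. With the percentile over detected probes the ratio became -0.065 in *Bloc1s1*, -0.0038 in *Bloc1s5*, -0.079 in *Dtnbp1*, -0.14 in *Gpr143*, -0.080 in *Hps4*, -0.098 in *Hps5*, -0.046 in *Mlana*, -0.10 in *Mlph*, -0.066 in *Pmel*, -0.094 in *Slc24a5*, -0.087 in *Tyrp1* and -0.084 in *Vps33a*. With quantile normalization it became -0.086 in *Bloc1s1*, -0.041 in *Dtnbp1*, -0.16 in *Gpr143*, -0.082 in *Hps4*, -0.058 in *Hps5*, -0.045 in *Mlana*, -0.11 in *Mlph*, -0.065 in *Pmel*, -0.051 in *Slc24a5* and -0.026 in *Tyrp1*. With normexp it became 0.0029 in *Dct*, -0.0041 in *Hps4*, -0.045 in *Hps5* and -0.0019 in *Mlph*. The cause was not tested. With an array left out the ratio ranged from -0.19 to 0.36 in *Bloc1s1*, -0.24 to 0.12 in *Dct*, -0.036 to 0.48 in *Gpnmb*, -0.13 to 0.15 in *Gpr143*, -0.21 to 0.34 in *Hps4*, -0.0071 to 0.10 in *Hps5*, -1.10 to 0.11 in *Lyst*, -0.0076 to 0.21 in *Mlana*, -0.049 to 0.13 in *Mlph*, -0.13 to 0.29 in *Pmel*, -0.44 to 0.068 in *Rab27a*, -0.22 to 0.046 in *Slc45a2*, -1.45 to 0.46 in *Tpcn2*, -0.18 to 0.11 in *Tyr*, -0.041 to 0.16 in *Tyrp1* and -0.10 to 0.22 in *Vps33a*.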
